A study of Mus musculus with 48 samples.

Results

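Genes of autophagy and mitophagy were followed through cultured mouse kidney slices: Sqstm1, Map1lc3a, Map1lc3b, Gabarapl1, Ulk1, Becn1, Atg5, Atg7, Tfeb and Bnip3. They were taken by name, and all 10 were found among the 55487 Ensembl gene IDs of the count table, of which 55141 carried a symbol. RNA-seq had been made from 48 libraries of male kidney slices kept ex vivo, 3 in each of 16 groups, from C57BL/6J and DBA/2J, inbred strains that are the founders of the BXD panel. In each strain the groups were control, tunicamycin and cyclosporin A slices at 6 h and at 24 h, and 2 oxygen conditions titled 24 h, which the labels call normoxia (an ischemia model) and normoxia-hyperoxia (a reperfusion model). Tunicamycin blocks N-linked glycosylation, and cyclosporin A is an immunosuppressant that inhibits calcineurin and can injure the kidney. How much of each drug was used, which oxygen level the controls had, when oxygen was switched and how old the mice were is not given in the sources used here. The titles set the oxygen conditions apart from the controls and drugs and give them no controls of their own, so an oxygen condition and that part of the study cannot be told apart.

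Autophagy encloses cytoplasm in a double membrane that fuses with lysosomes, and mitophagy is the same process aimed at mitochondria. The ULK1 kinase starts it, a lipid kinase complex with Beclin 1 nucleates the membrane, and a ubiquitin-like conjugation system that includes ATG7 and ATG5 attaches proteins of the LC3 and GABARAP families to its lipids. Receptors such as SQSTM1 (p62) and BNIP3 bind those proteins and so hold cargo in the membrane, while the transcription factor TFEB drives lysosomal and autophagy genes. Kidney tubule cells are rich in mitochondria and depend on this clearance under stress. Because most of these proteins are regulated or consumed after translation, mRNA levels do not measure the rate of autophagy.

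The promoter sequences are shown first, since Bnip3 is a textbook target of hypoxia-inducible factors, which bind the letters ACGTG, and TFEB binds sites built on CACGTG. RefSeq promoter windows (GRCm38.p6, 250 bases before the start of transcription to 50 after) were listed for 8 of the 10 genes; Map1lc3a and Becn1 had none, and Tfeb had 3. Motifs were searched on either strand in the 250 upstream bases only, and not in the 50 after the start. CACGTG was found there for Bnip3, Atg5 and Atg7, at -108 to -103, -14 to -9 and -132 to -127 from the start, and this palindrome also holds ACGTG on both strands. It is in capitals below, in the 250 upstream bases written 5′ to 3′ along the gene. The window of Sqstm1, the gene with the widest range of levels, is shown beside them and held none of the motifs searched.
Bnip3 promoter, chr7:138909507-138909756, minus strand: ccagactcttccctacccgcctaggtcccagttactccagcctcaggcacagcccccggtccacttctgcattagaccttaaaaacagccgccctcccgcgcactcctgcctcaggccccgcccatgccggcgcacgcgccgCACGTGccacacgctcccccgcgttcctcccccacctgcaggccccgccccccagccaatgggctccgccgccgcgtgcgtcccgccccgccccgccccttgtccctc
Atg5 promoter, chr10:44268089-44268338, plus strand: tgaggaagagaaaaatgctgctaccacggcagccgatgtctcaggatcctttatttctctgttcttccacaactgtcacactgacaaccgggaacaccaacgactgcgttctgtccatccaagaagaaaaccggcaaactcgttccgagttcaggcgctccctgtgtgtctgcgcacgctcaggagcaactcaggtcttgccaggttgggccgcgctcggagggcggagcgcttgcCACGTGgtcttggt
Atg7 promoter, chr6:114670846-114671095, plus strand: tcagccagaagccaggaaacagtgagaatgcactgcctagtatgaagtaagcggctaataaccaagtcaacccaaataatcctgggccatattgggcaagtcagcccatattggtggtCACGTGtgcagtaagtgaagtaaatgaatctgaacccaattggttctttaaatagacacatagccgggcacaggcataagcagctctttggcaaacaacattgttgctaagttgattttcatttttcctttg
Sqstm1 promoter, chr11:50210821-50211070, minus strand: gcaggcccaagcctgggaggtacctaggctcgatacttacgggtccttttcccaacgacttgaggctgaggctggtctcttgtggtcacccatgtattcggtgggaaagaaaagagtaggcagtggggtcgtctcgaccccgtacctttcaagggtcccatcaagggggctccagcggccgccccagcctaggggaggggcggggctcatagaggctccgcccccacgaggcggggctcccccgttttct
Of 32851 promoters of this length in the same table, 6.02% held CACGTG and 16.57% held ACGTG in their 250 upstream bases. The upstream bases of the 8 genes held no TCACGTGA (0.79% of all promoters), TGACNNNGC (10.16%), TGATGNAA (3.45%) or GTAAACA (3.17%). A match of letters is a description of these windows only. Among the 3 genes with CACGTG, under normoxia against 24 h controls, Bnip3 changed by -2.07 on the log2 scale, Atg7 by -0.64 and Atg5 by 0.09, and only the first 2 passed the test. Of the windows shown, 13 bases for Bnip3 and 7 for Sqstm1 lie in exons of the same gene in GENCODE M21, and none for Atg5 and Atg7. The Atg7 window lies inside the gene as GENCODE M21 draws it (chr6:114643097-114860614), where other transcripts start further upstream.

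On GRCm38, with GENCODE M21, the genes were protein-coding and lay on separate chromosomes except for 2 pairs: Sqstm1 (ENSMUSG00000015837, 11:50199366-50210827) and Becn1 (ENSMUSG00000035086, 11:101285952-101302286), and Atg7 (ENSMUSG00000030314) and Gabarapl1 (ENSMUSG00000030161, 6:129533160-129542346). The others were Map1lc3a (ENSMUSG00000027602, 2:155276297-155278073), Map1lc3b (ENSMUSG00000031812, 8:121590361-121598760), Ulk1 (ENSMUSG00000029512, 5:110784488-110810097), Atg5 (ENSMUSG00000038160, 10:44268358-44364291), Tfeb (ENSMUSG00000023990, 17:47737030-47792419) and Bnip3 (ENSMUSG00000078566, 7:138890836-138909519). Exons of 5 genes overlap exons of a gene on the opposite strand, and the strand setting of the counting is not given in the sources used here. Becn1 shares the most, 3104 bases with Cntd1, which was counted at no more than 6.76 CPM in any library. Pseudogenes resemble parts of Bnip3 (Gm16439, 98.9% identity over 564 bases, at most 6.29 CPM) and of Map1lc3b (Gm6055, 99.7% over 378 bases, at most 1.76 CPM), so small parts of those levels are uncertain.

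Levels are given as counts per 1000000 (CPM), scaled by TMM over all 48 libraries. Total counts ran from 5619309 to 25137581 (median 19607361). The shallowest library was the DBA/2J normoxia-hyperoxia replicate 2, and the next held 12384733 counts. Without that library 9 and 8 of the 10 genes were called for normoxia-hyperoxia against 24 h controls and against normoxia, as with it. The lowest count of any of the 10 genes in any library was 119, for Atg7. Where replicates are said to overlap or not, the 3 libraries of each group are meant, and the labels give each a biological replicate number without saying which mouse it came from, so the p-values measure the spread between these libraries. Marker genes of 9 cell classes of the kidney, proximal tubule among them, were detected in every group.

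Per kilobase of exon, Sqstm1 and Gabarapl1 stood far above the rest, with median levels over the 48 libraries of 753 and 517 CPM per kb. Map1lc3a and Bnip3 followed at 58.1 and 57.6, then Becn1 at 16.7 and Map1lc3b at 13.04 CPM per kb. Atg5 stood at 11.7, Ulk1 at 11.4, Tfeb at 5.18 and Atg7 at 3.30 CPM per kb. The order depends on the annotated exon length used, which was 7517 bases for Map1lc3b, 7065 for Becn1 and 1181 for Map1lc3a. In CPM, without division by length, the medians of Map1lc3b and Becn1 both lay above that of Map1lc3a. The genes varied by very different amounts across the 16 groups. The highest group mean was 8.18 times the lowest for Sqstm1, 5.24 times for Bnip3, 3.01 times for Gabarapl1, 2.14 times for Atg7 and 2.06 times for Tfeb, and between 1.29 times (Map1lc3a) and 1.77 times (Map1lc3b) for the other 5.

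**Figure D1:**
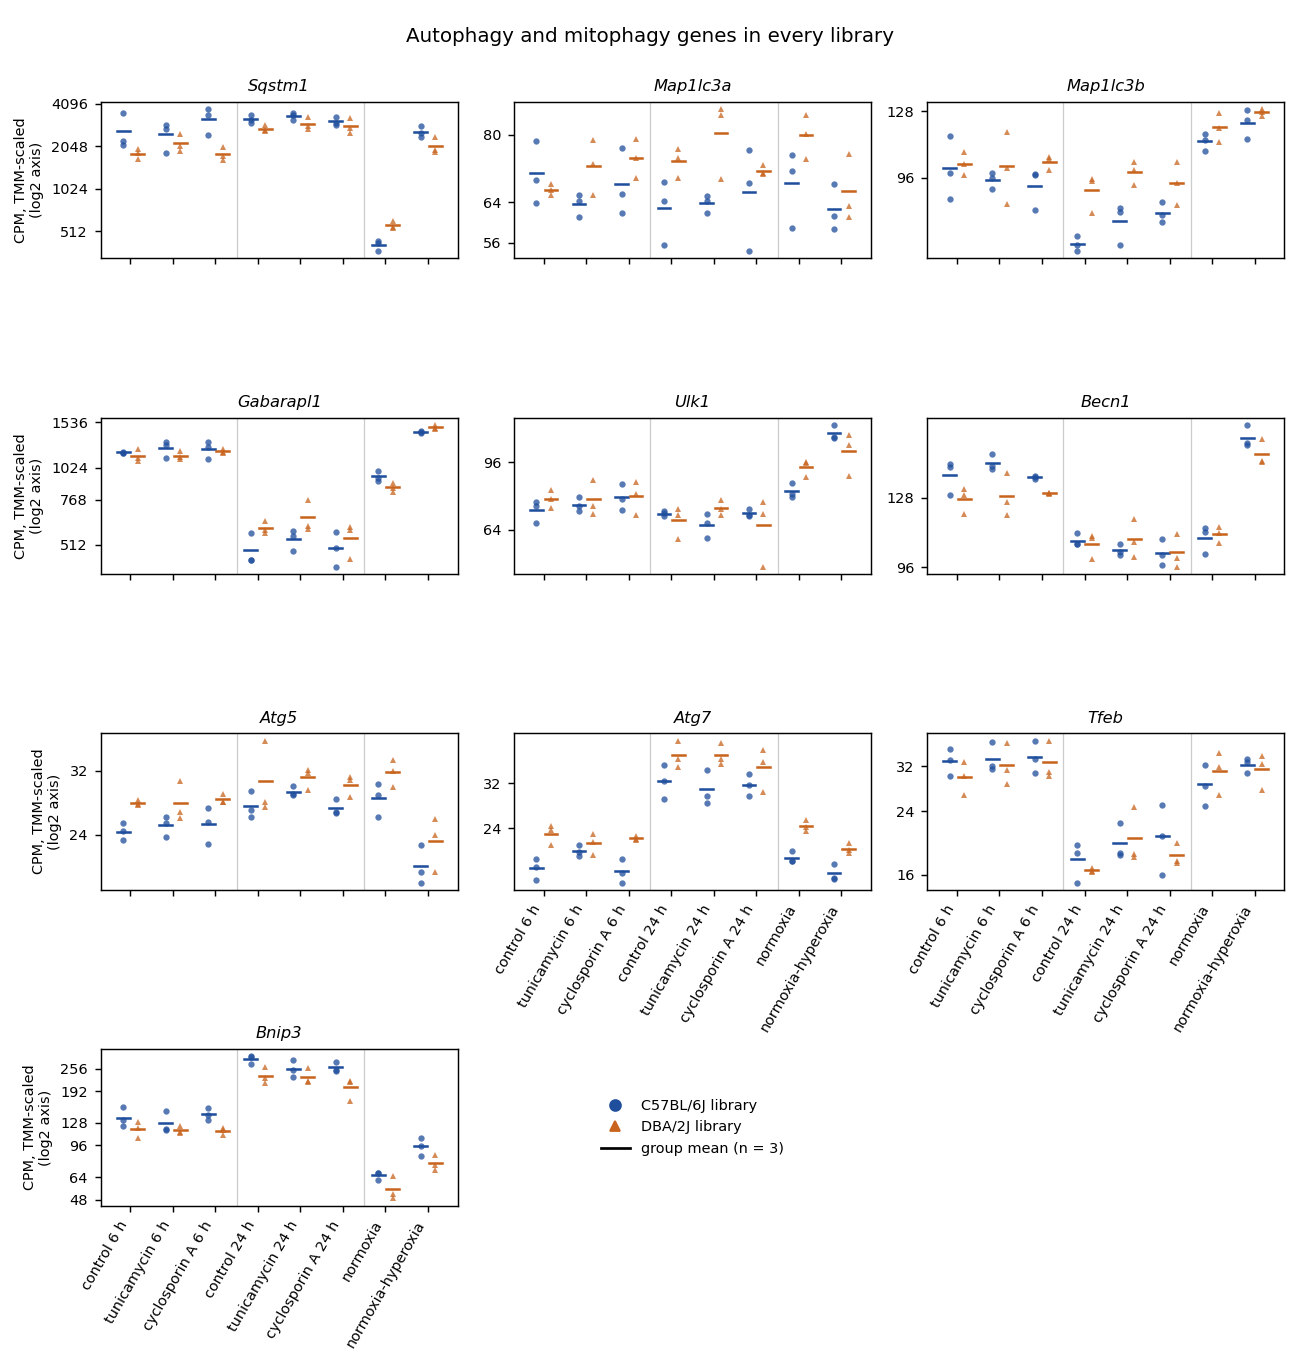
Each panel plots 1 gene in CPM with TMM scaling (log2 axis), with 3 libraries per group as points, the group mean as a bar, C57BL/6J as circles and DBA/2J as triangles; grey lines divide 6 h, 24 h and oxygen groups. Drug groups sit with the controls of their time point, while Sqstm1 drops to group means of 408 and 565 CPM under normoxia and Bnip3 is lowest there, at 65.7 and 55.1 CPM.

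Most of the 10 genes changed with time in culture and with the oxygen conditions, but so did most genes of the transcriptome, and the genes moved in both directions. Changes were tested with edgeR over both strains and called at an adjusted p under 0.05. From 6 h to 24 h in control slices, 7 of 10 genes were called, 3 higher and 4 lower, where 72.0% of 16962 genes tested were called. Under normoxia against 24 h controls 8 were called, 5 higher and 3 lower, against 82.0% of 17375 genes. Under normoxia-hyperoxia against 24 h controls 9 were called, 5 higher and 4 lower, against 68.2% of 17256 genes. Between normoxia-hyperoxia and normoxia 8 were called, 5 higher and 3 lower, against 73.5% of 17228 genes. Normoxia against 6 h controls gave 7, 3 higher and 4 lower, against 65.8% of 16819 genes. The libraries of the compared conditions did not overlap and differed in 1 direction in each strain alike for 6, 7, 9, 6 and 6 of the 10 genes in that order of comparisons, against 54.2%, 65.2%, 48.6%, 53.7% and 45.1% of all genes. Most of these counts lay near their backgrounds. The widest gap was for normoxia-hyperoxia against 24 h controls, with 9 of 10 genes not overlapping against 48.6% of all genes. Whether any count differs from its background was not tested, and what follows rests on which genes moved, how far and in which direction. The comparisons share control or normoxia libraries with one another, so the same gene's values across them are not independent.

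Direction calls lean on the scaling. With library totals in place of TMM, the median change of all genes moved from -0.02 to 0.19 for time, from 0.05 to -0.22 for normoxia against 24 h controls, from 0.00 to -0.17 for normoxia-hyperoxia against 24 h controls and from 0.02 to 0.11 between the oxygen conditions. The genes called higher and lower over all genes were then 7580 and 4969 rather than 5883 and 6338 for time, 5935 and 8360 rather than 7359 and 6891 for normoxia, and 4699 and 7347 rather than 5881 and 5891 for normoxia-hyperoxia. Between strains they were 3894 and 1247 rather than 2299 and 2151 in 6 h controls, 3370 and 1187 rather than 2470 and 1953 under normoxia-hyperoxia, and 3989 and 3601 rather than 4879 and 3186 under normoxia, counting genes higher in DBA/2J first. Of the changes called over both strains in these comparisons, that scaling turned the sign of 1, the small rise of Map1lc3a under normoxia. Of those not called, 4 turned sign and 3 of them then passed, Map1lc3a with time (0.18, edgeR adjusted p = 0.0284), Becn1 under normoxia against 24 h controls (-0.19, edgeR adjusted p = 0.00123) and Atg5 in the same comparison (-0.18, edgeR adjusted p = 0.0402).

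**Figure D2:**
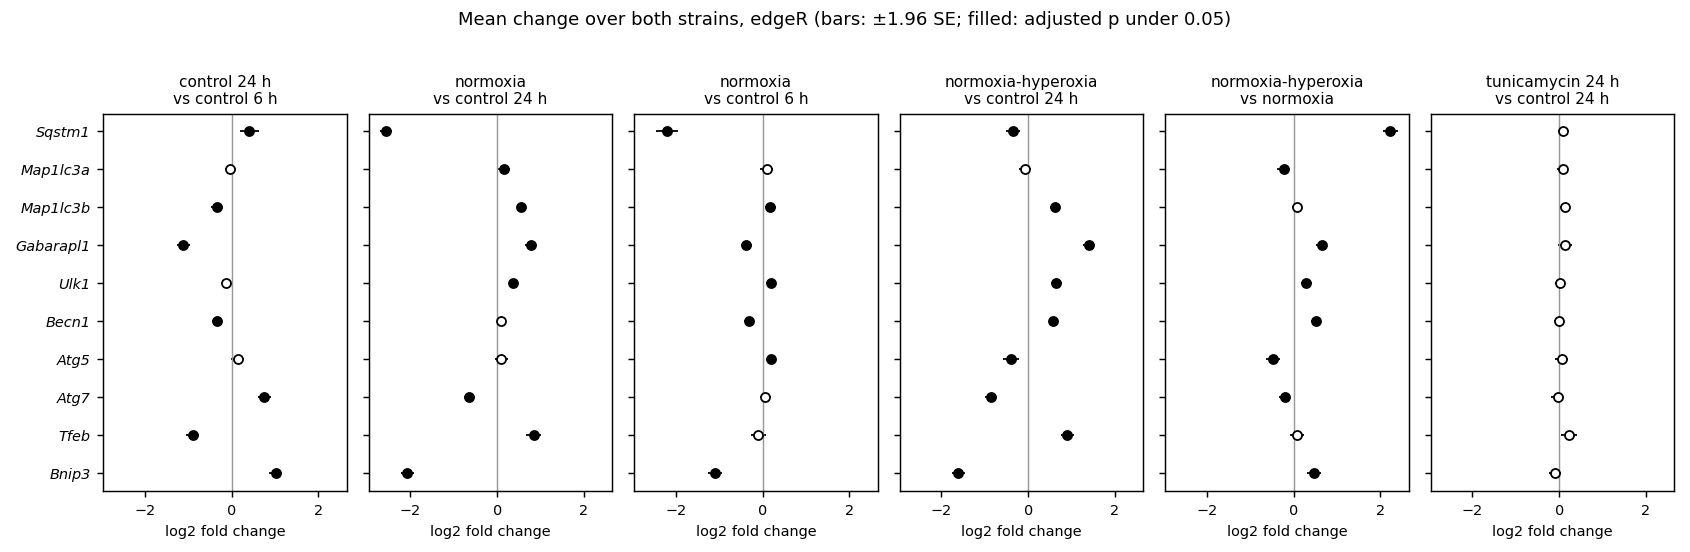
Points give each gene's log2 fold change averaged over both strains, with bars of the 95% interval, in 5 comparisons of time and oxygen and in tunicamycin at 24 h; filled points passed an edgeR adjusted p of 0.05. Sqstm1 lies at -2.57 and Bnip3 at -2.07 under normoxia against 24 h controls, Gabarapl1 at 1.41 under normoxia-hyperoxia, and no point is filled for tunicamycin.

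Markers of tubule cells and mitochondrial RNA moved along with these conditions. The summed level of 7 proximal tubule markers averaged 4158 CPM in C57BL/6J and 6239 in DBA/2J 6 h controls, 461 and 1353 in 24 h controls, 6574 and 13699 under normoxia, and 171 and 689.5 under normoxia-hyperoxia. All 7 were called lower at 24 h than at 6 h and higher under normoxia than in 24 h controls, and 6 of 7 were lower with normoxia-hyperoxia than in those controls. Thick limb markers (3 genes) averaged 9337 and 4509 CPM at 6 h, 2915 and 1864 at 24 h, 12087 and 2991 under normoxia, and 11201 and 6866 under normoxia-hyperoxia. Distal convoluted markers (3 genes) averaged 3755 and 3515 CPM at 6 h, 689 and 1288 at 24 h, 2865 and 1818 under normoxia, and 5457 and 6293 under normoxia-hyperoxia. Like Gabarapl1, all 3 were called lower with time and higher under normoxia-hyperoxia than under normoxia, as were the 3 markers of collecting duct principal cells. All 3 podocyte markers were called lower with time, and all 3 podocyte, all 4 endothelial and 4 of 5 immune markers higher under normoxia-hyperoxia than under normoxia. The 3 intercalated cell markers were called lower with time (median log2 -3.14) and higher under normoxia than in 24 h controls (median log2 3.21), and 3 of 4 stroma markers were lower with time. Of all genes 72.0% were called with time (5883 higher, 6338 lower) and 82.0% for normoxia against 24 h controls (7359 higher, 6891 lower). For normoxia-hyperoxia 68.2% were called against 24 h controls (5881 higher, 5891 lower) and 73.5% against normoxia (6371 higher, 6292 lower). Mitochondrially encoded genes took 15.4% of counts in C57BL/6J and 8.16% in DBA/2J at 6 h, 6.82% and 3.52% at 24 h, 23.9% and 12.3% under normoxia, and 14.1% and 13.7% under normoxia-hyperoxia. Their part in the changes below was not tested, and in bulk tissue fewer cells of a type and less RNA per cell cannot be told apart.

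Among cargo receptors, Sqstm1 encodes p62, which carries ubiquitinated proteins and organelles to the autophagosome and is degraded with them. In C57BL/6J it measured 3379.5, 3139 and 2979 CPM in 24 h controls and 421, 369.8 and 434 CPM under normoxia. In DBA/2J it measured 2863, 2645 and 2623 CPM in 24 h controls and 599.8, 552 and 543 CPM under normoxia. Every normoxia library lay below every other library of its strain in the study, and Sqstm1 was 5.93-fold lower under normoxia than in 24 h controls (log2 -2.57 ± 0.0699 (SE), edgeR adjusted p = 2.40e-14). Against 6 h controls, which measured 2082, 3536 and 2239 CPM in C57BL/6J slices and 1654, 1825 and 1950.0 CPM in those from DBA/2J, it was 4.60-fold lower (edgeR adjusted p = 1.46e-09). Normoxia libraries did not overlap the controls of either time in either strain.

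With hyperoxia after normoxia Sqstm1 stood close to the control levels. It measured 2831, 2388 and 2523 CPM in C57BL/6J slices and 1845, 1906 and 2368 CPM in those from DBA/2J, 4.67-fold above normoxia (log2 2.22 ± 0.0897 (SE), edgeR adjusted p = 7.56e-12). All 6 libraries lay below the 24 h controls of their strain, by 1.28-fold (edgeR adjusted p = 0.0014). From 6 h to 24 h Sqstm1 rose 1.33-fold over both strains (edgeR adjusted p = 0.00493), although in C57BL/6J the 6 h replicate 2, at 3536 CPM, lay above all 24 h libraries and the change in that strain alone did not pass (log2 0.26, edgeR adjusted p = 0.177).

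The LC3 and GABARAP proteins coat the growing membrane and dock the receptors. Gabarapl1 measured 1171, 1177 and 1171 CPM in C57BL/6J 6 h controls and 447, 572 and 446 CPM in 24 h controls. In DBA/2J the values were 1085, 1214 and 1112 CPM at 6 h and 572, 587 and 633 CPM at 24 h. The 2 times did not overlap in either strain, and Gabarapl1 fell 2.16-fold with time (log2 -1.11 ± 0.0769 (SE), edgeR adjusted p = 9.50e-09). Under normoxia it measured 909.8, 936 and 996 CPM in C57BL/6J slices and 856, 891 and 825 CPM in those from DBA/2J, and under normoxia-hyperoxia 1398, 1403 and 1421 CPM and 1457, 1449 and 1502 CPM. The normoxia level lay between the controls of the 2 times, 1.72-fold above the 24 h level (edgeR adjusted p = 3.23e-08) and 1.30-fold below the 6 h level (edgeR adjusted p = 1.73e-04). The normoxia-hyperoxia libraries were the highest of each strain in the study, 2.65-fold above 24 h controls (log2 1.41 ± 0.0727 (SE), edgeR adjusted p = 4.33e-10) and 1.56-fold above normoxia (edgeR adjusted p = 2.07e-07).

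Map1lc3b, which encodes the LC3B protein used most often to mark autophagosomes, ranged less widely than Gabarapl1. It measured 71.9, 74.8 and 69.9 CPM in C57BL/6J 24 h controls, 113, 108 and 116 CPM under normoxia and 123, 114 and 129 CPM under normoxia-hyperoxia. In DBA/2J the same groups gave 95.4, 82.5 and 94.8 CPM, 127, 119 and 112 CPM and 128, 125 and 129 CPM. Both oxygen conditions lay above the 24 h controls of their strain without overlap, by 1.47-fold (edgeR adjusted p = 5.67e-08) and 1.53-fold (edgeR adjusted p = 1.04e-07), and did not pass the test against each other (log2 0.07, interval -0.03 to 0.18), although with library totals that difference was 0.16 and called (edgeR adjusted p = 0.0131). Against 6 h controls Map1lc3b was 1.13-fold higher under normoxia (edgeR adjusted p = 0.0315), where Gabarapl1 was lower, and this call was lost with library totals, without C57BL/6J normoxia replicate 3 or without DBA/2J 6 h control replicate 2 (edgeR adjusted p 0.0645 to 0.0778). From 6 h to 24 h Map1lc3b fell 1.27-fold (edgeR adjusted p = 6.39e-04), a call that was lost with library totals (edgeR adjusted p = 0.128). Map1lc3a, which encodes LC3A, was the steadiest of the 10, with group means from 62.5 CPM (C57BL/6J, normoxia-hyperoxia) to 80.5 CPM (DBA/2J, tunicamycin at 24 h). Its rise of 1.12-fold under normoxia just passed (edgeR adjusted p = 0.0422), overlapped the 24 h controls in both strains and was lost in 10 alternatives, with adjusted p up to 0.139, and reversed to -0.11 in another, library totals. For normoxia-hyperoxia against 24 h controls that scaling also gave a called decrease (-0.25, edgeR adjusted p = 0.00476), which TMM did not (-0.08, edgeR adjusted p = 0.344). From normoxia to normoxia-hyperoxia Map1lc3a was called lower, although the libraries overlapped in both strains. Over 18 alternatives that change lay between -0.29 and -0.14, and the call was lost in 1, library totals (edgeR adjusted p = 0.105).

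Initiation and nucleation are represented by Ulk1, the kinase that answers to MTOR and AMPK, and Becn1, the Beclin 1 subunit of the lipid kinase complex. Ulk1 measured 71.4, 69.3 and 70.7 CPM in C57BL/6J 24 h controls, 79.4, 77.9 and 84.9 CPM under normoxia and 120.3, 111 and 112 CPM under normoxia-hyperoxia. In DBA/2J it measured 60.4, 72.6 and 69.8 CPM, 87.9, 95.4 and 96.3 CPM and 107, 88.4 and 113 CPM in the same groups. No oxygen library overlapped the 24 h controls of its strain, and Ulk1 was 1.29-fold higher under normoxia (edgeR adjusted p = 1.58e-05) and 1.57-fold higher under normoxia-hyperoxia (edgeR adjusted p = 6.91e-07). The first of these was lost with library totals (edgeR adjusted p = 0.133). Between 6 h and 24 h controls Ulk1 did not pass the test (log2 -0.13 ± 0.0618 (SE), edgeR adjusted p = 0.0742), although it was called lower without DBA/2J 24 h control replicate 2 (-0.15, edgeR adjusted p = 0.0457) or C57BL/6J 6 h control replicate 2 (-0.16, edgeR adjusted p = 0.0274).

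Becn1 separated the 2 oxygen conditions. Under normoxia it measured 113, 111 and 102 CPM in C57BL/6J slices and 114, 110.5 and 106 CPM in those from DBA/2J, next to 24 h controls at 106, 111 and 106 CPM and 108, 99.5 and 109 CPM. Those ranges overlapped in both strains, and the difference did not pass (log2 0.08, interval -0.01 to 0.17). Under normoxia-hyperoxia the values were 173, 159 and 161 CPM and 149, 164 and 148 CPM, above every other control and oxygen library of the strain, 1.48-fold above 24 h controls (log2 0.57 ± 0.0519 (SE), edgeR adjusted p = 1.51e-07) and 1.42-fold above normoxia (edgeR adjusted p = 5.35e-07). With time in culture it fell 1.27-fold (edgeR adjusted p = 8.24e-05), from group means of 141 ± 9.93 and 127 ± 6.63 CPM (SD, n = 3) at 6 h, and with library totals that change was -0.14 and no longer called (edgeR adjusted p = 0.0528).

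Of the conjugation genes, Atg7 encodes the E1-like enzyme that activates both ubiquitin-like systems, and it measured 17.2, 18.7 and 19.7 CPM in C57BL/6J 6 h controls and 32.4, 28.96 and 35.9 CPM in 24 h controls. In DBA/2J it measured 23.7, 24.3 and 21.5 CPM at 6 h and 42.1, 35.6 and 37.3 CPM at 24 h. It rose 1.68-fold with time without overlap in either strain (log2 0.75 ± 0.0765 (SE), edgeR adjusted p = 5.44e-07). Under normoxia it measured 20.8, 19.4 and 19.4 CPM in C57BL/6J slices and 23.5, 25.3 and 24.2 CPM in those from DBA/2J, 1.56-fold below the 24 h controls (edgeR adjusted p = 2.52e-07). Against the 6 h controls the difference did not pass (log2 0.06, interval -0.06 to 0.19). Under normoxia-hyperoxia Atg7 was 1.82-fold below 24 h controls (edgeR adjusted p = 6.44e-08), at 19.1, 17.4 and 17.3 CPM and 20.5, 20.8 and 21.8 CPM. There Atg7 was also called lower than under normoxia, without overlap in either strain. Over 18 alternatives that change lay between -0.25 and -0.12. Its call was lost without a filter on low counts and with library totals (edgeR adjusted p 0.0524 to 0.0961).

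Atg5 encodes the partner that ATG12 is joined to, in the complex that places LC3 on the membrane. Its lowest group means were those of normoxia-hyperoxia. There it measured 20.3, 19.3 and 22.95 CPM in C57BL/6J slices and 25.8, 23.9 and 20.3 CPM in those from DBA/2J. Under normoxia it measured 30.1, 26.01 and 28.6 CPM and 33.6, 31.96 and 29.8 CPM, and in 24 h controls 29.2, 25.96 and 26.8 CPM and 36.6, 27.2 and 27.7 CPM. All 3 normoxia-hyperoxia libraries of each strain lay below both of those groups, by 1.39-fold against normoxia (edgeR adjusted p = 4.20e-05) and 1.32-fold against 24 h controls (edgeR adjusted p = 0.00123). Neither time in culture (log2 0.14, interval -0.02 to 0.29) nor normoxia against 24 h controls (log2 0.09, interval -0.06 to 0.25) passed the test for Atg5. Without DBA/2J 24 h control replicate 1 the normoxia change was 0.18 and called (edgeR adjusted p = 0.0191). The change with time was called with library totals (0.35, edgeR adjusted p = 8.73e-04) and in the fit to all 48 libraries (0.16, edgeR adjusted p = 0.0352).

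Tfeb, the transcription factor of lysosomal and autophagy genes, was lower in 24 h controls than in any other control or oxygen group. It measured 33.4, 30.1 and 35.8 CPM in C57BL/6J 6 h controls, 19.3, 18.4 and 15.2 CPM in 24 h controls, 28.2, 24.9 and 32.3 CPM under normoxia and 33.4, 30.7 and 32.8 CPM under normoxia-hyperoxia. The DBA/2J values were 32.96, 30.1 and 26.7 CPM, 16.3, 16.7 and 16.4 CPM, 31.9, 34.8 and 26.6 CPM and 34.2, 27.4 and 32.4 CPM in that order. In both strains the 24 h controls did not overlap the other 3 groups, which overlapped one another. Tfeb fell 1.87-fold with time (log2 -0.90 ± 0.0805 (SE), edgeR adjusted p = 1.29e-07) and was 1.79-fold higher under normoxia (edgeR adjusted p = 1.80e-07) and 1.86-fold higher under normoxia-hyperoxia (edgeR adjusted p = 7.74e-08) than in 24 h controls. The oxygen conditions did not pass the test against each other (log2 0.07, interval -0.10 to 0.24), nor did normoxia against 6 h controls (log2 -0.10, interval -0.27 to 0.07).

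Bnip3 encodes a mitophagy receptor of the outer mitochondrial membrane. In C57BL/6J it measured 123, 156 and 132 CPM in 6 h controls, 299, 272 and 295 CPM in 24 h controls, 67.4, 61.9 and 67.8 CPM under normoxia and 106, 83.9 and 95.2 CPM under normoxia-hyperoxia. In DBA/2J the same groups gave 106, 129 and 119 CPM, 228, 260.3 and 212 CPM, 64.99, 51.6 and 48.7 CPM and 69.7, 74.97 and 84.9 CPM. The 4 groups did not overlap within either strain and fell in 1 order in both: normoxia, normoxia-hyperoxia, 6 h and 24 h controls. Bnip3 rose 2.02-fold with time (log2 1.01 ± 0.0779 (SE), edgeR adjusted p = 2.85e-08). Normoxia was 4.20-fold below the 24 h controls (log2 -2.07 ± 0.0765 (SE), edgeR adjusted p = 6.94e-13) and 2.14-fold below the 6 h controls (edgeR adjusted p = 4.27e-08). Normoxia-hyperoxia was 3.06-fold below 24 h controls (edgeR adjusted p = 2.17e-10) and 1.39-fold above normoxia (edgeR adjusted p = 9.56e-05).

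Bnip3l, which encodes NIX, the closest relative of BNIP3, kept the order of the controls and oxygen conditions only in part. It measured 131, 122 and 126 CPM in C57BL/6J 24 h controls and 49.2, 55.5 and 56.96 CPM under normoxia, and rose by 1.02 with time and fell by 1.27 under normoxia on the log2 scale (edgeR adjusted p = 4.66e-09 and 1.54e-11). Between the oxygen conditions its change of 0.04 did not pass. Pink1, the kinase that accumulates on damaged mitochondria, took the opposite course to the 2 receptors. Pink1 measured 74.4, 77.4 and 68.7 CPM in C57BL/6J 24 h controls and 276, 270.0 and 275 CPM under normoxia, and 109.9, 87.9 and 115 CPM and 348, 307 and 300.4 CPM in DBA/2J. On the log2 scale it changed by -1.18 from 6 h to 24 h, and by 1.80 under normoxia and 0.92 under normoxia-hyperoxia against 24 h controls, all called. Fundc1, another mitochondrial receptor tied to low oxygen, changed by -0.51, 0.56 and 0.27 in the same comparisons, also called in each.

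**Figure D3:**
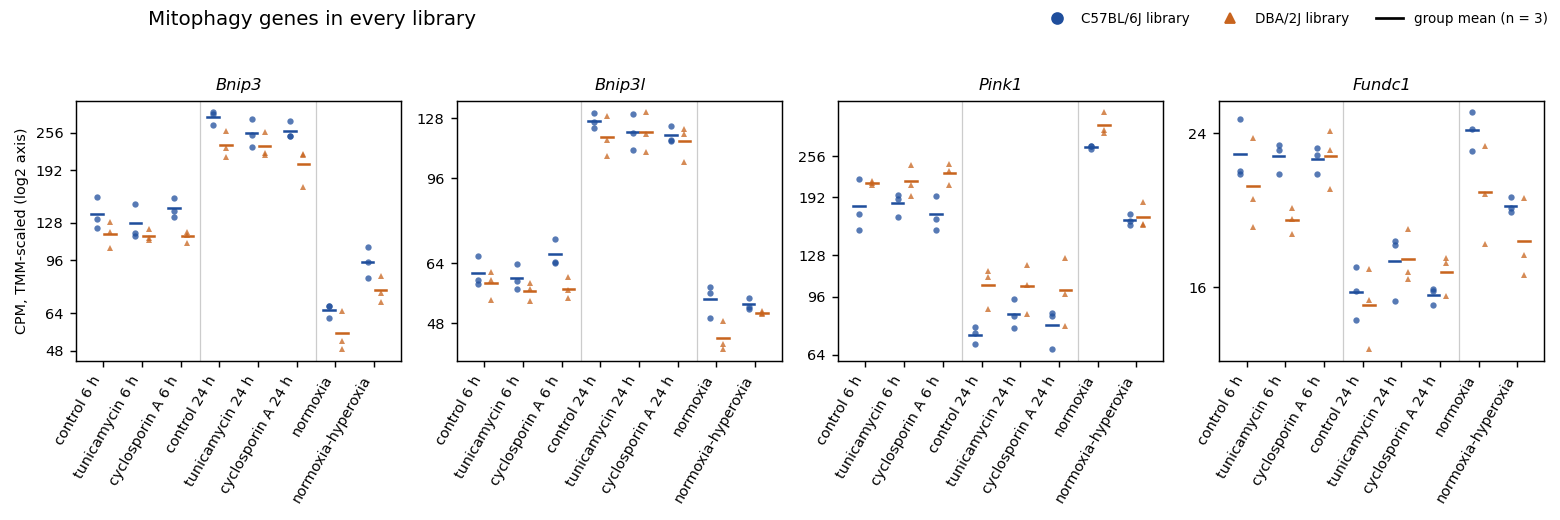
Each panel plots 1 mitophagy gene in CPM with TMM scaling (log2 axis) in all 16 groups, with 3 libraries per group as points and the group mean as a bar. Bnip3 and Bnip3l are high in the 24 h groups and low under both oxygen conditions, while Pink1 and Fundc1 are lower in the 24 h groups, where Pink1 averages 73.5 CPM in C57BL/6J controls.

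Neither drug gave a call for any of the 10 genes. Over both strains, log2 changes lay between -0.06 and 0.08 with tunicamycin at 6 h, -0.06 and 0.13 with cyclosporin A at 6 h, -0.10 and 0.22 with tunicamycin at 24 h, and -0.18 and 0.18 with cyclosporin A at 24 h. Their intervals all lay between -0.32 and 0.41, so larger changes lie outside the 95% interval of every one of the 10. An unadjusted p under 0.05 was reached by 0, 0, 2 and 2 of the 10 genes, and the lowest edgeR adjusted p was 0.33, for tunicamycin at 24 h. DESeq2 called none of the 10 either. Over all genes edgeR called 0 (0.0% of 16551), 0 (0.0% of 16538), 233 (1.38% of 16905) and 0 (0.0% of 16887), with 281, 734 and 1107 genes at an unadjusted p under 0.05 in the 3 comparisons without calls, and DESeq2 called 50, 532 and 20 genes for cyclosporin A at 6 h, tunicamycin at 24 h and cyclosporin A at 24 h. Sqstm1, for example, averaged 3336 ± 175 CPM with tunicamycin and 3067 ± 207 CPM with cyclosporin A at 24 h in C57BL/6J, against 3166 ± 202 CPM in controls (SD, n = 3). Bnip3 averaged 231 ± 23.6 and 201 ± 27.6 CPM with the drugs in DBA/2J, against 234 ± 24.4 CPM (SD, n = 3).

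Sqstm1, Atg7, Map1lc3a, Map1lc3b and Ulk1 were each called between the 2 strains in at least 1 condition. In 6 h controls 2 of 10 were called between strains, where 26.2% of all genes were: Sqstm1 was lower in DBA/2J (log2 -0.51 ± 0.162 (SE), edgeR adjusted p = 0.0316) and Atg7 higher (log2 0.34 ± 0.11 (SE), edgeR adjusted p = 0.0327). The Sqstm1 difference shrank to -0.22 (edgeR adjusted p = 0.165) without replicate 2 of C57BL/6J, the library at 3536 CPM, and its call was also lost without any 1 of the 3 DBA/2J libraries and with library totals. The Atg7 call was lost without replicate 1 of C57BL/6J or replicate 1 or 2 of DBA/2J (edgeR adjusted p 0.0562 to 0.118). In 24 h controls Map1lc3b alone was called, higher in DBA/2J (log2 0.34 ± 0.102 (SE), edgeR adjusted p = 0.026), against 22.2% of all genes, and this was lost when any of 6 control libraries was left out (edgeR adjusted p 0.0516 to 0.0957, the alternative without a filter on low counts included). Other alternatives called more of the 10 genes there, 3 with DESeq2, 3 with the replicate block, 2 with library totals and 2 in the fit to all 48 libraries. Under normoxia 4 of 10 were called, all higher in DBA/2J, where 46.8% of all genes were called and 28.3% were higher. These were Sqstm1 (0.55, edgeR adjusted p = 0.00198), Atg7 (0.37, adjusted p = 0.0026), Map1lc3a (0.31, adjusted p = 0.0293) and Ulk1 (0.29, adjusted p = 0.0147), and only the call of Sqstm1 held in every alternative tried. Among libraries left out, that of Map1lc3a was lost without C57BL/6J replicate 2 or DBA/2J replicate 1 or 3, and that of Ulk1 without replicate 2 of either strain (edgeR adjusted p up to 0.151 and 0.206 over their alternatives). Under normoxia-hyperoxia Sqstm1 was called, lower in DBA/2J (log2 -0.35 ± 0.121 (SE), edgeR adjusted p = 0.0466), against 25.7% of all genes, and the call was lost in 10 alternatives, 8 of which left out 1 library each (edgeR adjusted p 0.0529 to 0.165). Atg7 was higher in DBA/2J on average in all 4 conditions, with log2 differences of 0.34, 0.26, 0.37 and 0.22, and Bnip3 lower, with differences of -0.19, -0.30, -0.17 and -0.32, without a call for Bnip3 in any.

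The response to oxygen differed between strains for Sqstm1 and, less firmly, Ulk1. Sqstm1 fell by 2.95 on the log2 scale under normoxia against 24 h controls in C57BL/6J and by 2.18 in DBA/2J, a difference of 0.77 ± 0.132 (SE), edgeR adjusted p = 0.00136, and it rose by 2.67 and 1.77 from normoxia to normoxia-hyperoxia, a difference of -0.90 ± 0.172 (SE), edgeR adjusted p = 0.00296. Both of these differences held in every alternative tried. Against 6 h controls the falls were 2.72 and 1.69 (difference 1.03 ± 0.241 (SE), edgeR adjusted p = 0.0304), a call that leaving out any of 8 libraries ended (edgeR adjusted p up to 0.0914). On average C57BL/6J stood above DBA/2J in controls, where the difference at 24 h did not pass (log2 -0.21, edgeR adjusted p = 0.396), and below it under normoxia. Ulk1 rose by 0.20 in C57BL/6J and 0.54 in DBA/2J under normoxia (difference 0.35 ± 0.113 (SE), edgeR adjusted p = 0.0473), which was lost in 16 alternatives, down to a difference of 0.16 without replicate 1 of the DBA/2J 24 h controls. From normoxia to normoxia-hyperoxia Ulk1 rose by 0.52 in C57BL/6J, while DBA/2J gave 0.07, which did not pass (difference -0.45 ± 0.125 (SE), edgeR adjusted p = 0.0228). That call was lost in 7 alternatives (edgeR adjusted p 0.056 to 0.155), among them without replicate 1 of C57BL/6J or 2 of DBA/2J under normoxia-hyperoxia or replicate 2 of either strain under normoxia. Without the shallowest library, DBA/2J normoxia-hyperoxia replicate 2, the difference was -0.33 (edgeR adjusted p = 0.0736). So the change of 2 of 10 genes was called different in DBA/2J in each of these comparisons, both higher for normoxia against 24 h controls, where 10.1% of all genes were higher, and both lower for normoxia-hyperoxia against normoxia, where 18.2% were called in either direction, 1893 of 17228 genes lower and 1241 higher (745 and 1749 with library totals). The same was so for 1 of 10 for normoxia against 6 h controls, against 3.66%. For time in culture and for normoxia-hyperoxia against 24 h controls none of the 10 passed, against 0.69% and 1.43%; the count at an unadjusted p under 0.05 was 0 and 1, and DESeq2 called none.

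**Figure D4:**
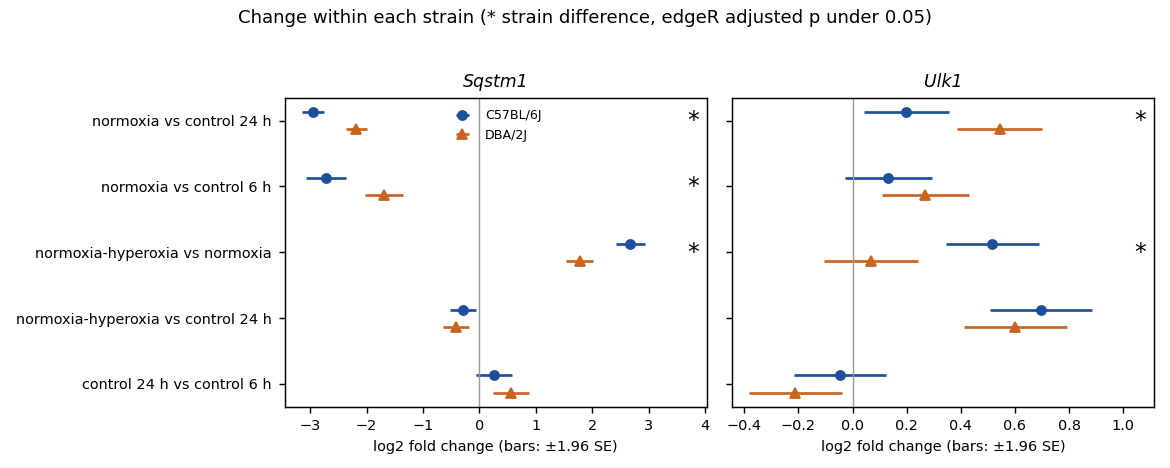
Points give the log2 fold change within each strain (circles C57BL/6J, triangles DBA/2J) with bars of the 95% interval for Sqstm1 and Ulk1, and asterisks mark comparisons where the strains' changes differed at an edgeR adjusted p under 0.05. The fall of Sqstm1 under normoxia against 24 h controls is -2.95 in C57BL/6J and -2.18 in DBA/2J.

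Another 75 genes of the pathway were measured in 9 role groups, and all 75 were tested. From 6 h to 24 h 60 were called, 26 higher and 34 lower (72.0% of all genes called). Under normoxia against 24 h controls 67 were called, 36 higher and 31 lower (82.0% of all genes), and under normoxia-hyperoxia against 24 h controls 49, 24 higher and 25 lower (68.2%). Between the oxygen conditions 59 were called, 26 higher and 33 lower (73.5%), and for normoxia against 6 h controls 49, 28 higher and 21 lower (65.8%). Their median log2 changes were -0.05, 0.08, 0.02, 0.03 and 0.01, next to -0.02, 0.05, 0.00, 0.02 and 0.02 for all genes tested. No drug comparison called any of the 75 with edgeR, apart from some alternatives for tunicamycin at 24 h. There 1 of the 75 was called without the filter on low counts and 1 in a fit to all 48 libraries. Leaving out C57BL/6J tunicamycin replicate 3 or DBA/2J control replicate 2 also gave 1.

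Lysosomal genes fell with time in 8 of 10 cases and rose in 2 (median -0.45). Under normoxia 7 of 10 rose and 3 fell against 24 h controls (median 0.49). Of all genes 72.0% and 82.0% were called. With time 5883 of 16962 were higher and 6338 lower, and under normoxia 7359 of 17375 were higher and 6891 lower. Library totals gave 7580 and 4969 with time and 5935 and 8360 under normoxia. Neu1, the lysosomal sialidase, had the largest changes among the lysosomal genes, -1.53 with time, 2.50 under normoxia and -2.33 from normoxia to normoxia-hyperoxia. It measured 85.7, 95.5 and 83.4 CPM in C57BL/6J 24 h controls and 431, 322 and 451 CPM under normoxia, and 139, 109 and 131 CPM and 792, 792 and 912 CPM in DBA/2J. Lamp1, a structural protein of the lysosomal membrane, changed by -0.47, 0.97 and -1.03 in those comparisons, all called. Mtor, the kinase that holds autophagy back when nutrients are plentiful, changed by -0.73 with time, 1.51 under normoxia and -1.66 from normoxia to normoxia-hyperoxia, all called. Prkaa1, a catalytic subunit of AMPK, changed by 0.44, -1.29 and 0.98 in those comparisons, all called and each time opposite in sign to Mtor.

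Among receptors, Optn, which acts beside p62 in mitophagy, also fell under normoxia. It averaged 71.4 ± 1.87 CPM in C57BL/6J 24 h controls, 29.6 ± 2.41 CPM under normoxia and 76.4 ± 6.92 CPM under normoxia-hyperoxia (SD, n = 3). The DBA/2J averages were 68.1 ± 1.78, 21.1 ± 0.419 and 64.4 ± 7.72 CPM. It fell by 1.44 under normoxia against 24 h controls and rose by 1.45 from normoxia to normoxia-hyperoxia (edgeR adjusted p = 7.61e-13 and 8.19e-11), with no call for time (0.03). Tfe3, a relative of Tfeb, moved unlike it: 0.45 with time, -1.28 under normoxia and 1.20 from normoxia to normoxia-hyperoxia, all called. Of the membrane supply genes 8 of 8 were called with time, 5 higher and 3 lower, where 72.0% of all genes were called. Atg9b, a lipid scramblase of the pathway, had the largest changes of all 75, 2.58 with time and -3.08 under normoxia. Tmem41b, a lipid scramblase of the endoplasmic reticulum, fell by 1.38 under normoxia against 24 h controls (edgeR adjusted p = 3.29e-11). Calcoco1, a receptor for the endoplasmic reticulum and Golgi, rose by 1.30 under normoxia against 24 h controls (edgeR adjusted p = 6.42e-12), and Retreg1, another receptor of the endoplasmic reticulum, fell by 0.70 (edgeR adjusted p = 4.37e-09). The other GABARAP genes did not follow Gabarapl1 closely: under normoxia-hyperoxia against 24 h controls, Gabarap changed by 0.06 and Gabarapl2 by -0.14, neither called, next to 1.41 for Gabarapl1. Epg5, a tether for fusion with lysosomes, rose by 1.24 with time and fell by 1.05 under normoxia-hyperoxia against 24 h controls (edgeR adjusted p = 6.96e-10 and 7.78e-10).

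**Figure D5:**
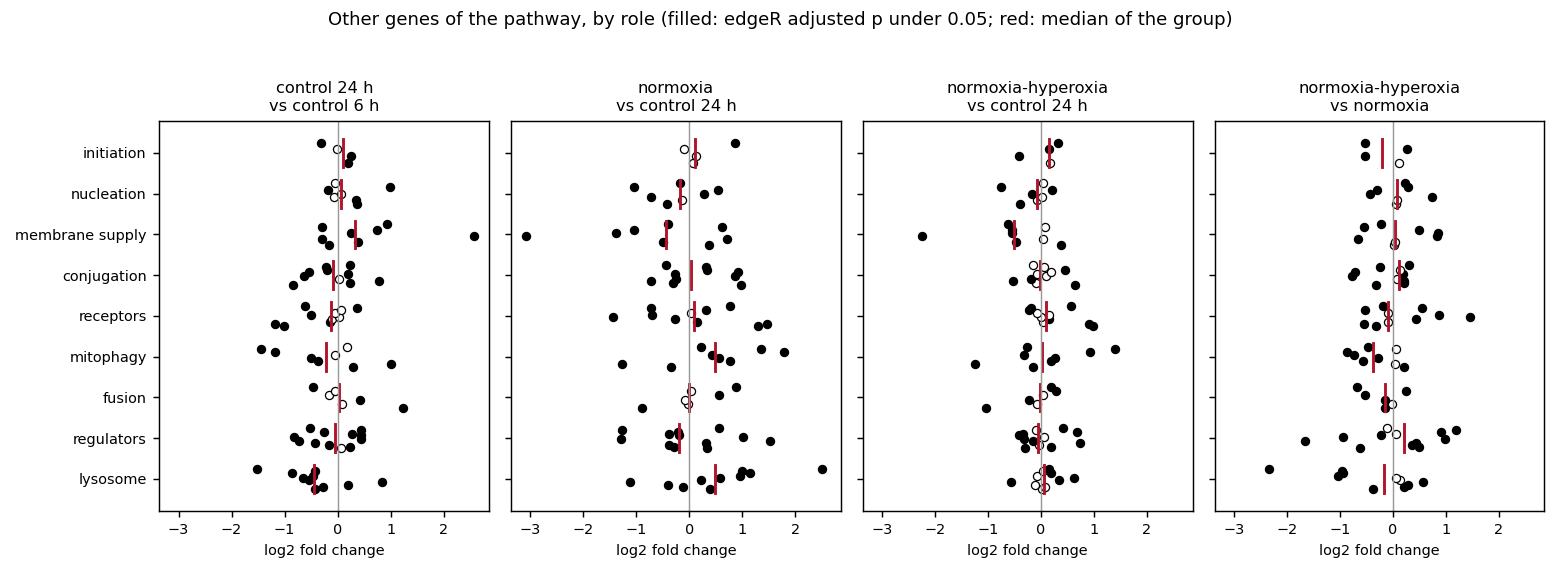
Each point is 1 of 75 other pathway genes, placed by its log2 fold change over both strains in 4 comparisons and grouped by role, with filled points called at an edgeR adjusted p under 0.05 and a red bar at the median of the role group. Changes spread to both sides of 0 in most role groups, with lysosomal medians of -0.45 with time and 0.49 under normoxia.

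Between strains, 46 of the 75 genes were called under normoxia, 41 higher in DBA/2J and 5 lower, against 28.3% and 18.5% of all genes. The named genes Neu1, Mtor and Lamp1 were higher there by 1.13, 1.05 and 1.01 on the log2 scale, and Optn differed by -0.41 (edgeR adjusted p at most 0.00467). In 6 h controls 16 were called (26.2% of all genes), in 24 h controls 15 (22.2%), and under normoxia-hyperoxia 11 (25.7%). The change from normoxia to normoxia-hyperoxia differed between strains for 24 of 75, 23 of them lower in DBA/2J (18.2% of all genes in either direction, 1893 of 3134 lower), and the change from 24 h controls to normoxia for 21, 18 of them higher (10.1% of all genes higher). The summed proximal tubule markers under normoxia were 6574 CPM in C57BL/6J against 13699 CPM for DBA/2J on average, and their part in these strain differences was not tested.

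Over the 16 group means on the log2 scale, the genes with courses most like each member were listed as a description, among 12253 expressed genes. The points share libraries and scaling, and the drug groups repeat their controls. Sqstm1 was most like Scaf8 (Pearson r = 0.996), Ubap1 (0.992) and Cry1 (0.988), and Bnip3 most like Pcgf5 (0.993), Avpi1 (0.986) and Mid1ip1 (0.985). Gabarapl1 lay nearest to Wnk4, Scnn1a and Tspan1 (0.990 each), of which Wnk4 and Scnn1a are genes of distal salt handling. Tfeb lay nearest to Cyp2d22 (0.981), Rgl3 (0.980) and Slc9a3 (0.979), the last a sodium-proton exchanger. Becn1 lay nearest to Dnaja1 (0.981), Trak1 (0.980) and Dnaja4 (0.975), 2 of them heat shock cochaperones. Within the 10 genes, Tfeb and Gabarapl1 had r = 0.93, Becn1 and Gabarapl1 0.91 and Sqstm1 and Bnip3 0.78, while Atg7 had r = -0.94 with Tfeb and -0.89 with Gabarapl1 over the same 16 means.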

How the data were processed

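RNA from male mouse kidney slices was made into stranded mRNA libraries, per the labels' protocols. The authors deposited whole-number counts per Ensembl gene for 48 libraries. Per the submitters' processing notes, bcl2fastq 2.20.0, FastQC 0.11.8, STAR 2.7.9a, featureCounts 1.5.1 and the GRCm38 build were used. The annotation release, strand setting and read filters are not given in the sources used here. Groups came from the sample titles.

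From the counts, edgeR 4.0.16 (R 4.3.3, limma 3.58.1) was fitted per comparison to 12 libraries in 4 groups (2 conditions in both strains), with TMM scaling, its filter on low counts and robust quasi-likelihood F tests with 8 residual degrees of freedom before moderation. Contrasts were the mean over both strains, each strain, the strain difference of the change and the strain difference within controls and oxygen conditions. Benjamini-Hochberg adjustment ran over all genes tested, with calls at 0.05. SE is the size of the log2 fold change divided by the root of F, and intervals are 95% by the normal approximation. CPM for display used TMM over all 48 libraries. All 10 genes passed the filter in every comparison. The fit was tested on simulated counts. Figures used matplotlib 3.10.9.

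The 10 genes, the 75 other pathway genes and the marker lists were chosen with earlier results of these data known. Named pathway genes were the 3 largest rises and 3 largest falls among those called in each comparison at a mean log2 CPM of at least 1, plus Bnip3l, Pink1, Fundc1, Gabarap and Gabarapl2; 1 gene named by this rule is not reported here. Alternatives were RLE size factors, no filter, DESeq2 1.42.0, a fit to all 48 libraries at once, a block for the replicate number, leaving out each library in turn and, chosen after seeing the data, library totals without TMM. Mouse identity is not given in the sources used here, and replicates differed by far more than sampling noise (chi-square per degree of freedom from 5.389 to 68.855).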

Additional observations from a re-analysis of the deposited data

Results flagged for a closer look

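The change in Sqstm1 differed between strains in 3 comparisons that share the normoxia libraries, by a test of the difference itself. Written as DBA/2J minus C57BL/6J on the log2 scale, the differences were 0.77 for normoxia against 24 h controls, -0.90 for normoxia-hyperoxia against normoxia and 1.03 for normoxia against 6 h controls. Ulk1 differed in the same way by 0.35 for normoxia against 24 h controls and by -0.45 for normoxia-hyperoxia against normoxia. The 2 Sqstm1 differences of 0.77 and -0.90 passed in every alternative tried, while 1.03 lost its call in 9, the replicate block among them, and those of Ulk1 in 16 (0.16 without DBA/2J 24 h control replicate 1) and 7.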

How the results depend on the processing

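Across the alternatives, 1032 of 1134 gene changes kept their direction and call. With the sign kept, 88 lost the call and 7 gained one. A further 7 turned sign, 1 of which had been called before. Called after turning, with library totals, were Map1lc3a over time and Becn1 and Atg5 under normoxia against 24 h controls. Of 954 counts 834 stayed within 1.5 times. With library totals signs turned for Map1lc3a (0.18) and Ulk1 (0.084) over time and for Map1lc3a (-0.11), Becn1 (-0.19) and Atg5 (-0.18) under normoxia against 24 h controls. Leaving out 1 library, Map1lc3a over time lay between -0.075 and 0.0063, above 0 without C57BL/6J 24 h control replicate 3 (0.0063) or 6 h control replicate 1 (0.0040). For drugs the number of all genes called was, without a filter and with DESeq2, 4 and 50 for cyclosporin A at 6 h, 395 and 532 for tunicamycin at 24 h, and 3 and 20 for cyclosporin A at 24 h (3 also in 1 fit of all libraries), and tunicamycin at 6 h gave 1 and 1 for the strain difference. For tunicamycin at 24 h 1 other pathway gene was called without a filter and 1 in 1 fit of all libraries. The strain difference of the change, over all genes, called 117 genes for time and 817 (no filter), 360 (DESeq2) and 71 (block), 247 for normoxia-hyperoxia against 24 h controls and 1156, 679, 618 (block) and 409 (1 fit), and 616 for normoxia against 6 h controls and 1536, 1170 and 1462 (block). Of the 10 genes, that difference was called in 1 rather than 2 for normoxia against 24 h controls (RLE, no filter, 1 fit) and for normoxia-hyperoxia against normoxia (no filter, totals, 1 fit), and in 0 rather than 1 for normoxia against 6 h controls with the block. Between strains, 24 h controls gave 3 (DESeq2), 3 (block), 2 (totals) and 2 (1 fit) rather than 1, normoxia 1 (no filter), 2 (totals) and 2 (1 fit) rather than 4, and normoxia-hyperoxia 2 (no filter), 2 (block) and 0 (1 fit) rather than 1. The cause of these differences was not tested. Leaving out 1 library moved the counts of the 10 genes called between strains to 0 to 2 in 6 h controls, 0 to 2 in 24 h controls, 2 to 4 under normoxia and 0 to 2 under normoxia-hyperoxia. It moved the strain difference of the change to 1 to 3, 1 to 2 and 0 to 1 of the 10 for normoxia against 24 h controls, normoxia-hyperoxia against normoxia and normoxia against 6 h controls. Over all genes it gave 46 to 226 for time, 1860 to 2700 for normoxia and 103 to 524 for normoxia-hyperoxia against 24 h controls and 241 to 1125 for normoxia against 6 h controls, with 78 to 344 for tunicamycin at 24 h (other pathway genes 0 to 1) and 0 to 1 for cyclosporin A at 6 h. Replicate numbers were not taken to pair the samples, since in each comparison at least 1 of 6 same-numbered pairs had deviations correlated below 0.1 (lowest -0.14 to 0.07, highest 0.09 to 0.37). Pairing is not excluded by this, as all 3 pairs of 1 strain lay over 0.1 in some comparisons. For normoxia against 6 h controls all 6 libraries were nearest their own number (mean correlation 0.18), a hint from the data and not from the labels. Each library had only the 3 numbers of its strain to be nearest to. Tunicamycin at 6 h and both normoxia-hyperoxia comparisons gave 5 of 6, and the others 2 to 4 of 6. With the replicate block the strain difference of the Sqstm1 change against 6 h controls had an edgeR adjusted p of 0.0526, and 62 of 63 gene changes kept their direction and call. The lowest count of the 10 genes in any library was 119, and with 3 libraries a group small differences may be missed.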
